A study of Mus musculus with 18 samples.

Results

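The comparison of *Slc7a7* knockout with wild type bone marrow-derived macrophages kept in control medium covered 6 of the 18 libraries of the series, 3 per genotype, and 12290 of the 31053 listed genes passed the filter on low counts. All libraries that the labels place in control medium were taken. The macrophages were grown from the bone marrow of 12-week-old mice and matured for 7 days, and 100000 cells per library then received the vehicle, phosphate-buffered saline, for 24 h, as the untreated arm beside cells given acetylated or oxidized LDL (Ac-LDL, Ox-LDL). The knockout animals (Slc7a7-/- in the labels, *Slc7a7*-LysM mice on a C57Bl/6J background) carry a deletion made by LysM-Cre, a recombinase expressed from the *Lyz2* locus in myeloid cells, so that loss of the gene is limited to cells in which the recombinase has acted. Wild type animals are labelled Slc7a7+/+. Whether they carried the recombinase, and which exons are removed, is not given in the sources used here. Maturation was described both with M-CSF and with L-cell medium, and which of these fed the sequenced cells is not given either. The same 6 mice, 3 per genotype, supplied the libraries of all 3 media.

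*Slc7a7* encodes y+LAT1, the light chain of an amino acid exchanger at the cell surface. Paired with the heavy chain encoded by *Slc3a2*, it sends arginine, lysine and ornithine out of the cell in exchange for neutral amino acids such as glutamine, taken up with sodium. *Slc7a6* encodes the other light chain with this activity. Macrophages use arginine, ornithine and glutamine in nitric oxide, polyamine, proline and glutathione synthesis. Loss of the human gene causes lysinuric protein intolerance, a disease in which macrophages of the lung and other organs are affected.

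Total estimated counts ran from 1067282 to 1459210 in the wild type and from 1583935 to 1712563 in the knockout, so every knockout library was deeper than every wild type library, and 3 counts corresponded to 1.81 to 2.79 CPM, the count scaled to the effective size of the library. The macrophage genes *Adgre1*, *Csf1r*, *Cd68*, *Mertk* and the other 18 of a list of 22 were detected, summing to 27285 to 47499 CPM per library. Neutrophil markers summed to 120 to 181 CPM in the wild type and 79.9 to 184 in the knockout, with *Ctsg*, *Ly6g* and *Retnlg* at 0, and lymphoid markers to 4.89 CPM at most. Dendritic cell markers summed to 18.6 to 30.9 CPM, with *Flt3* and *Xcr1* at 0, and erythroid and megakaryocyte markers to 12.1 to 24.1 CPM. Stromal markers reached 40.8 CPM in wild type mouse 3, the highest of the 6 libraries, with *Lum* at 0. Library profiles correlated across genes at 0.954 to 0.970 between genotypes, at 0.949 to 0.961 among wild type libraries and at 0.969 to 0.973 among knockout libraries, so the wild type libraries resembled each other no more than they resembled the knockout. On principal components, wild type mouse 1 stood apart on the first (42.5% of the variance) and wild type mouse 3 on the second (25%), and neither component separated the genotypes. *Xist* was high in wild type mouse 2 and knockout mouse 1 while Y-linked genes were near 0 there, and the reverse held in the other 4, in every medium. The sexes of the mice are not in the labels, and 1 such mouse stood in each genotype.

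*Slc7a7* (chr14:54369442-54417780, minus strand, GRCm38) was lower in the knockout, with 12, 18 and 29 counts in the 3 wild type libraries and 17, 7 and 8 in the knockout libraries. On the CPM scale this was 11.1, 12.6 and 21.1 against 10.2, 4.33 and 5.16. The groups did not overlap, but knockout mouse 1 lay just under the lowest wild type library, and its *Slc7a7* signal was close to that of the controls. The fitted log2 fold change (knockout minus wild type throughout) was −1.18 ± 0.34 (SE of the fit, n = 3 per genotype). Its 95% interval ran from −1.89 to −0.47. Its adjusted p was 1.0 in the quasi-likelihood test of edgeR and stayed between 0.136 and 1.0 over all settings tried, and the exact two-sided permutation test gave 0.10, the smallest value 3 against 3 libraries allow. Counts from exons outside the deletion would still be assigned to the gene, so the remaining counts do not measure the transcript that can make protein. *Oxa1l*, a mitochondrial membrane insertase gene that overlaps *Slc7a7* on the opposite strand, had 42.7, 47.5 and 47.4 CPM in the wild type and 47.0, 53.2 and 36.1 in the knockout. Both genotypes thus had like levels of the overlapping gene (log2 fold change −0.01 ± 0.20), whose sign changed when single libraries were left out. With LDL, in other libraries of the same mice, the *Slc7a7* log2 fold change was −2.89 with Ac-LDL and −1.50 with Ox-LDL, where the wild type means were 25.3 and 28.0 CPM against 14.9 in control medium.

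**Figure D1:**
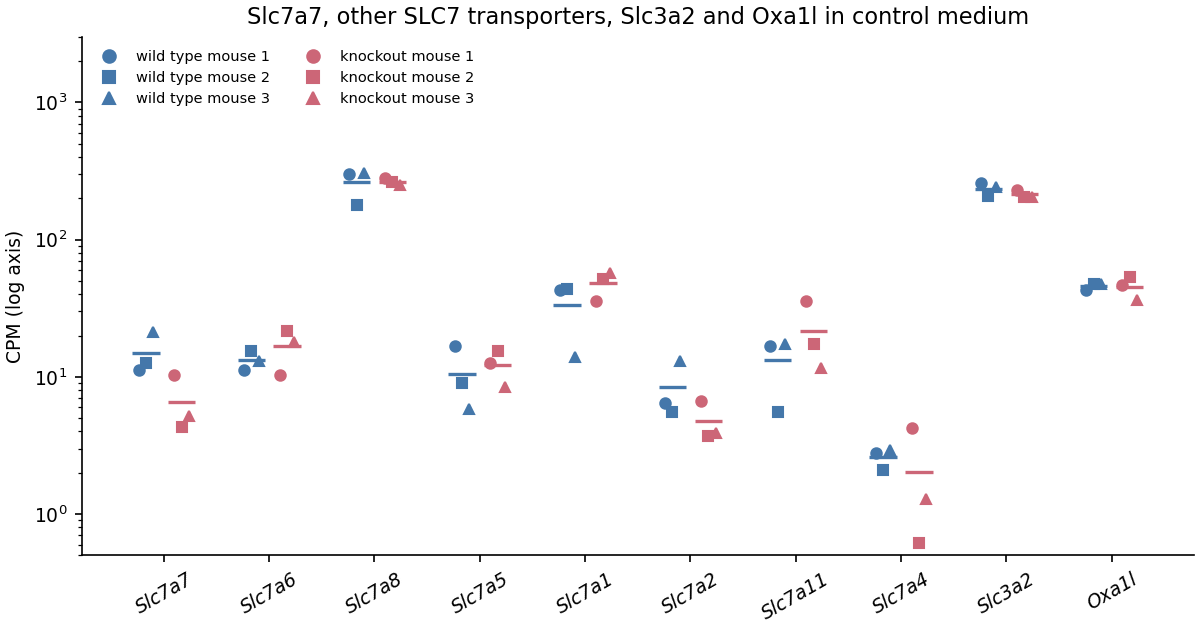
CPM (vertical axis, log scale) of *Slc7a7*, 7 other SLC7 transporter genes, *Slc3a2* and *Oxa1l* in the 3 wild type and 3 knockout libraries in control medium, 1 point per mouse, with bars at the group means. Among these genes the genotypes are apart only for *Slc7a7*, where knockout mouse 1 (10.2 CPM) lies next to the lowest wild type library (11.1 CPM), and since CPM is not scaled to gene length, heights are to be compared within a gene.

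Among the transporters of the SLC7 and SLC3 families, 9 of 13 listed genes were tested, and *Slc7a7* was the only one with an unadjusted p under 0.05. Over all genes this share was 4.0%, with 258 genes higher (2.1%) and 233 lower (1.9%). The partner heavy chain *Slc3a2* had 258, 207 and 241 CPM in the wild type and 231, 203 and 205 in the knockout. The ranges overlapped, with an interval of the log2 fold change from −0.39 to 0.11. *Slc7a6*, the other y+L light chain, had 11.1, 15.3 and 13.1 CPM in the wild type and 10.2, 21.7 and 18.1 in the knockout (0.32 ± 0.32). Knockout mice 2 and 3, the ones with the lowest *Slc7a7*, held the highest *Slc7a6* values, while knockout mouse 1 held the lowest. *Slc7a1*, the main carrier of arginine into cells, read 42.7, 44.0 and 13.8 CPM in the wild type and 35.6, 52.0 and 56.7 in the knockout (0.53 ± 0.29), a spread made mostly by wild type mouse 3. For *Slc7a2*, the inducible arginine carrier, the values were 6.50, 5.58 and 13.1 CPM against 6.63, 3.71 and 3.87 (−0.82 ± 0.46). *Slc7a8*, a light chain that exchanges neutral amino acids, had 298, 179 and 305 CPM against 282, 263 and 249, an interval from −0.31 to 0.36. The cystine carrier *Slc7a11* spread from 5.58 to 17.5 CPM in the wild type and from 11.6 to 35.6 in the knockout, and *Slc7a5*, which carries leucine, from 5.83 to 16.7 and from 8.38 to 15.5. *Slc7a4* had at most 4.22 CPM in any library. None of these separated the genotypes.

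Across all 12290 genes, 1 gene passed an adjusted p of 0.05 (0.00814% of those tested) and none of the others fell under 0.562. The called gene, *Gstp1*, is a glutathione S-transferase that conjugates reactive compounds to glutathione, and it was lower in the knockout. The knockout and wild type libraries did not overlap for 600 genes that were higher (4.88%) and 540 that were lower (4.39%) in the knockout. Differences past 2-fold were rare among well-counted genes. Of 1904 genes with a mean of at least 100 CPM, 5 differed by more than 1.5-fold and 0 by more than 2-fold, and the 95% interval lay within 2-fold either way for 98.7% of them. At a mean of 10 CPM or more that share was 90.2% of 8560 genes, and over all genes 65.1%. A typical interval therefore reached a factor of 3.79 below 5 CPM, 1.51 from 10 to 30 CPM and 1.23 from 100 to 1000 CPM. Smaller or rarer changes were not detectable at this depth. These intervals are not adjusted for the number of genes tested, and larger differences, such as that of *Slc7a7*, also missed the adjusted threshold. The replicates come from separate mice, and the shared spread of the fit rests on 6 mice in 3 media. In a test of whether the difference between genotypes depended on the medium, 0 genes passed for either LDL in edgeR (327 and 338 at an unadjusted p under 0.05, no other tool run). That fit holds no term for the mice, which are the same in each medium. With such a term, added after the data were seen, 5 genes had an adjusted p under 0.05 with Ac-LDL, including *Hist1h2ah*, *Gm32687*, *Gstp1* and *Ngp*, and 0 with Ox-LDL (474 and 496 at an unadjusted p under 0.05, smallest adjusted p 0.0291 and 0.0667).

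**Figure D2:**
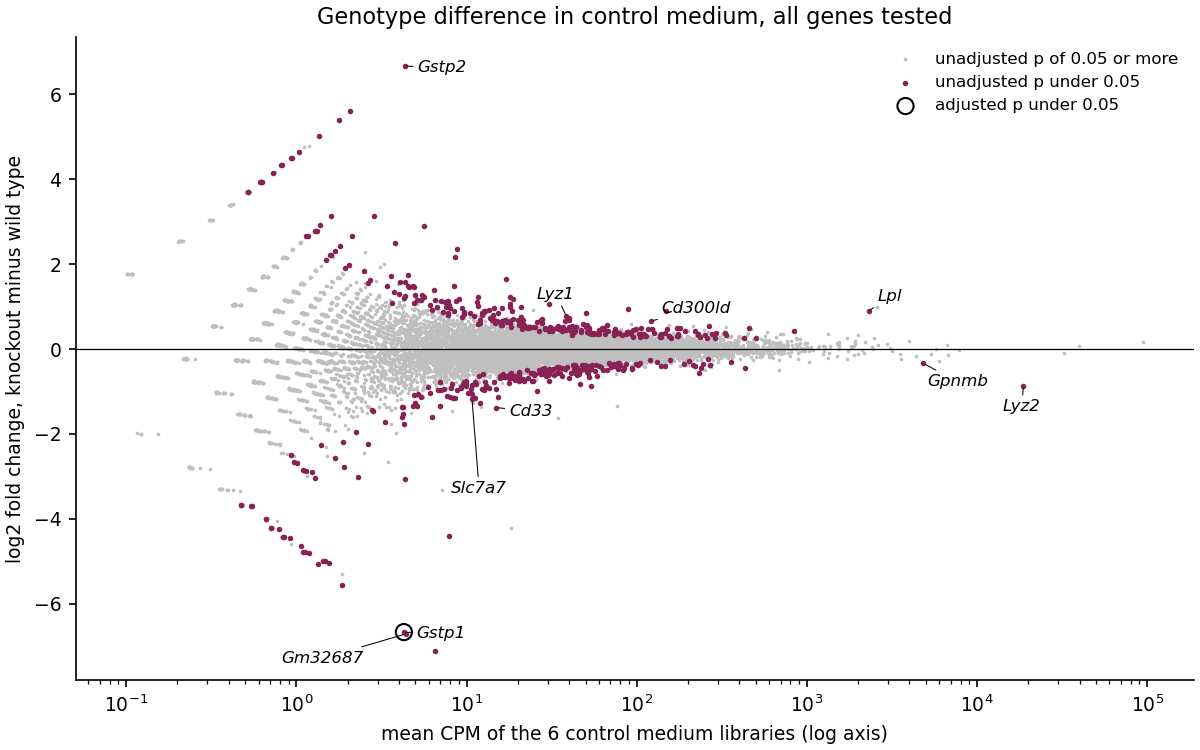
Log2 fold change, knockout minus wild type in control medium (vertical axis), against mean CPM of the 6 libraries (log axis) for the 12290 genes tested, with genes at an unadjusted p under 0.05 in colour and the 1 gene with an adjusted p under 0.05 ringed. The cloud narrows to the right, 0 genes of at least 100 CPM lie past 2-fold, and *Gstp1*, *Gstp2* and *Gm32687* sit at the far ends because 1 genotype had no counts.

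The called gene belongs to a pair of adjacent, near-identical genes on chromosome 19, *Gstp1* (chr19:4035407-4037985) and *Gstp2* (chr19:4040285-4046023), both on the minus strand. Their coding sequences differed at 12 of 633 bases (98.1% identity), and the longest stretch without a difference ran over 303 bases. Over all annotated transcripts, 38.5% of the 31-base words of *Gstp1* and 60.3% of those of *Gstp2* occur in other genes. The first 240 coding bases of each are shown, from the GENCODE M21 transcripts on GRCm38. Capitals mark the 6 bases that differ between them in this stretch, where only reads over such bases separate the genes.
Gstp1: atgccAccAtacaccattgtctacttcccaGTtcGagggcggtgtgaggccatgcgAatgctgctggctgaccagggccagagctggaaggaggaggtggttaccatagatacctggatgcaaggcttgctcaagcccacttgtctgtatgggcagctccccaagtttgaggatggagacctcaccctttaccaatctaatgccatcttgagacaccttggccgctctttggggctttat
Gstp2: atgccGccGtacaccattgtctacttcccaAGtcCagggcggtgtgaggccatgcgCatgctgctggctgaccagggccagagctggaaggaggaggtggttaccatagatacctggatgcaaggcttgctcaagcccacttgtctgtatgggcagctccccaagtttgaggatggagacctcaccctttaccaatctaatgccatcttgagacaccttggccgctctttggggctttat
*Gstp1* had 7, 16 and 11 counts in the wild type libraries and 0, 0 and 0 in the knockout libraries. *Gstp2* had 0, 0 and 0 in the wild type and 17, 12 and 13 in the knockout. The pair was thus read out as one gene in one genotype and as the other gene in the other. Against 3 counts per library, *Gstp1* was at least 4.59-fold lower (adjusted p = 0.0208) and *Gstp2* at least 3.69-fold higher (adjusted p = 0.562, edgeR). Added together, the pair did not separate the genotypes, and no gene then passed the threshold. The log2 fold change of the sum was 0.00019 with the *Gstp* and *Lyz* pairs summed, and −0.01 ± 0.41 in the fit that also summed the pair described next. With Ac-LDL, *Gstp2* had 0 counts in all 6 libraries, and with Ox-LDL it had 3, 0 and 5 in the knockout alone. The switch within the pair was therefore complete only in control medium. *Gstp1* was also no longer called when only the control libraries entered the fit (adjusted p = 0.119), when libraries were thinned to one depth (0.132), or when any 1 control library other than that of wild type mouse 1 was left out (0.0554 to 0.175, edgeR). The other NRF2 targets and glutathione enzymes, 29 tested in all, included *Gss*, the glutathione synthetase, at 21.4, 27.2 and 19.7 CPM in the wild type and 15.7, 11.8 and 14.8 in the knockout (−0.69 ± 0.27, unadjusted p = 0.0162), and a list median of −0.17.

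**Figure D3:**
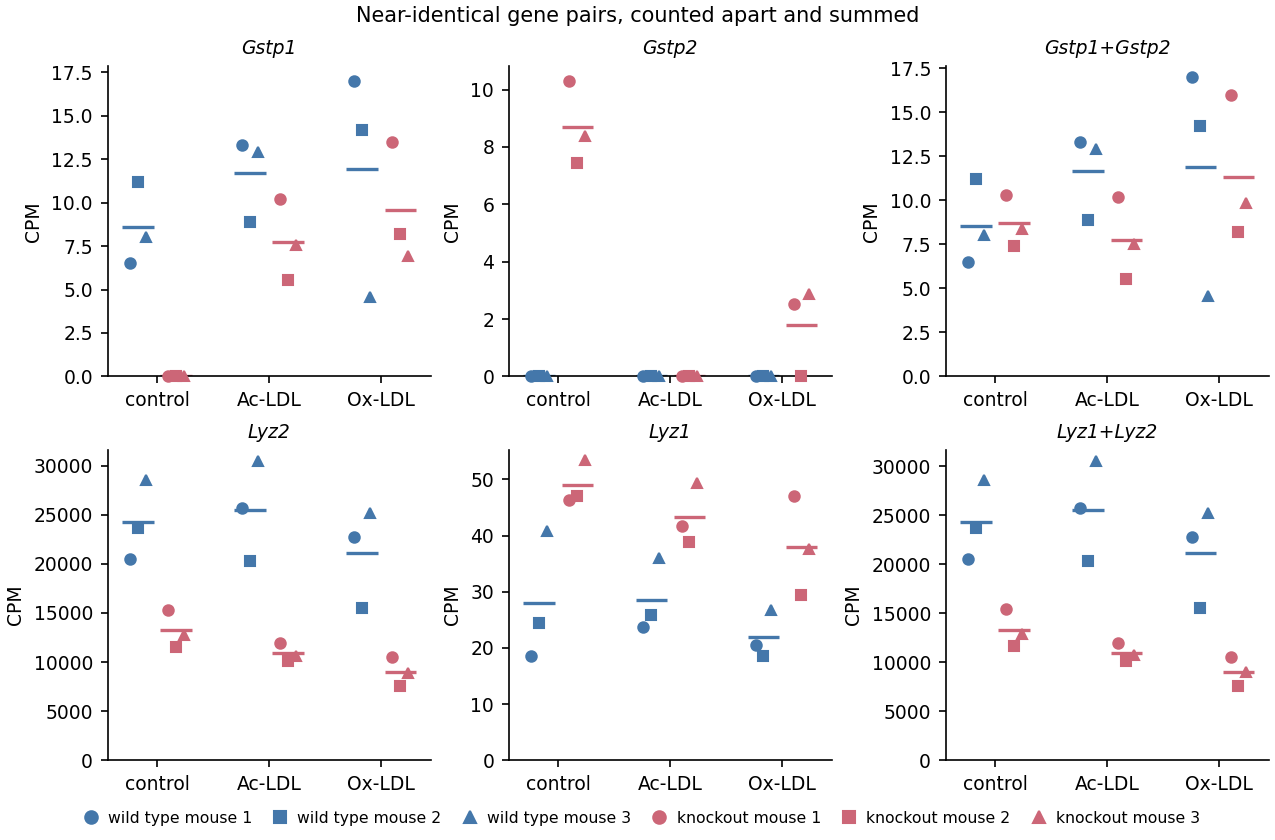
CPM of *Gstp1*, *Gstp2*, their sum, *Lyz2*, *Lyz1* and their sum (vertical axes, each from 0) in each wild type and knockout library of the 3 media, 1 point per mouse, with bars at the group means. In control medium *Gstp1* was counted only in the wild type and *Gstp2* only in the knockout while their sums overlap, and *Lyz2* and *Lyz1* differ in opposite directions in every medium.

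In control medium, a predicted gene with a near copy split in the same way as the *Gstp* pair, and it was named after its values were seen. *Gm32687* (chr10:81863934-81881081) had 7, 15 and 13 counts in the wild type and 0, 0 and 0 in the knockout, at least 4.72-fold lower (adjusted p = 0.562). Of its 31-base words, 96.0% occur in other annotated genes. Its near copy *Zfp433* read 1, 8 and 3 counts in the wild type and 23, 24 and 21 in the knockout, so the order of the genotypes was turned around. The sum of both differed by 0.23 ± 0.30 on the log2 scale. In Ac-LDL medium, *Gm32687* was higher in the knockout without overlap, with 3, 8 and 6 counts in the wild type against 9, 29 and 16. With Ox-LDL it had 18, 0 and 24 counts in the wild type, where *Zfp433* had 0, 25 and 5, so the copy with most counts differed within a genotype. *Gstp1*, *Gstp2* and *Gm32687* were the only tested genes with at least 5 counts in every library of one genotype and 0 in every library of the other. DESeq2, the tool named in the study's methods, called 3 genes, *Gstp1*, *Lyz2* and *Gm32687*.

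*Lyz2*, whose locus carries the recombinase in LysM-Cre mice, encodes the lysozyme of macrophages, an enzyme that cleaves bacterial cell walls. It read 20497, 23637 and 28591 CPM in the wild type and 15337, 11567 and 12798 CPM in the knockout, without overlap (−0.87 ± 0.20). Its adjusted p was 0.562 in edgeR, 0.00116 in edgeR without a filter on low counts and 0.00674 in DESeq2. The neighbouring copy *Lyz1*, the lysozyme of intestinal Paneth cells, went the other way, with 18.6, 24.4 and 40.8 CPM in the wild type and 46.4, 47.0 and 53.5 in the knockout (0.79 ± 0.24, unadjusted p = 0.00298). Both genes were without overlap in every medium, and the sum followed *Lyz2* (−0.88 ± 0.20). *Lyz2* (chr10:117277331-117282321) and *Lyz1* (chr10:117287797-117292868) lie next to each other and shared 95.1% of their coding bases, with 22 of 447 different and a longest identical run of 118 bases. The first 240 coding bases are shown for comparison with the pair above, with capitals at the 17 bases that differ in this stretch, more than in the *Gstp* genes.
Lyz2: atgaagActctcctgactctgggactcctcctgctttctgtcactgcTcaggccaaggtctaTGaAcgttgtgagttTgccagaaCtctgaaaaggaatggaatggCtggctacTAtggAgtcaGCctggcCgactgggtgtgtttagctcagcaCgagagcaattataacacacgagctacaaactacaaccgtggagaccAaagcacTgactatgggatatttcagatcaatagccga
Lyz1: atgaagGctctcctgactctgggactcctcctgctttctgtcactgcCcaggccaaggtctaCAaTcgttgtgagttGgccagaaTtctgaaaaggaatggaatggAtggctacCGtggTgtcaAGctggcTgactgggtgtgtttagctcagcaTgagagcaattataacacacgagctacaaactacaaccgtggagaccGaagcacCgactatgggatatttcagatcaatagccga

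The region around *Lyz2* was looked at separately. Of 37 tested genes within 5 Mb, 7 (18.9%), *Lyz1* included, had an unadjusted p under 0.05, 6 of them higher in the knockout, against 4.0% of all genes. *Cpsf6*, a subunit of the complex that sets messenger RNA 3′ ends, lies 0.0624 Mb away and had 73.3, 85.2 and 80.2 CPM in the wild type and 105, 105 and 118 in the knockout (0.45 ± 0.14). *Mdm2*, the ubiquitin ligase of p53, at 0.407 Mb, had 214, 206 and 180 CPM against 241, 304 and 222. *Zfc3h1*, at 1.84 Mb, had 114, 130 and 122 CPM against 154, 162 and 153, and *Tmbim4*, at 2.92 Mb, was the one lower gene. Each of these 4 separated the genotypes in control medium. With LDL, the shares in this region were 2.7% (Ac-LDL) and 16.2% (Ox-LDL), beside 4.89% and 4.78% of all genes. Around *Slc7a7* on chromosome 14, 9 of 102 genes (8.82%) had an unadjusted p under 0.05, 4 higher and 5 lower, with 1.96% and 6.86% in the LDL media. *Rnase4*, a secreted ribonuclease 3.26 Mb away, was among the lower ones with 67.8, 41.9 and 56.9 CPM against 41.0, 27.9 and 40.0.

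Across all genes, 233 had a mean of at least 10 CPM, an unadjusted p under 0.05 and no overlap, 127 higher and 106 lower in the knockout, *Slc7a7* and the lysozyme genes included, and 15 of the genes of this level and p were past 2-fold. The 10 largest differences in each direction, *Slc7a7* among the lower ones, are described here as values, since none had an adjusted p under 0.828 in edgeR. *Cd33*, a receptor for sialic acids on myeloid cells, had 36.2, 11.9 and 17.5 CPM in the wild type and 9.65, 6.81 and 7.74 in the knockout (−1.38 ± 0.43). Its adjusted p in edgeR was 0.0204 when no filter on low counts was applied. Wild type mouse 1 alone held the high value, and the log2 fold change was between −1.69 and −0.84 when single libraries were left out. *Usp21*, a deubiquitinase, had 20.4, 11.2 and 15.3 CPM against 6.63, 6.19 and 7.74 (−1.16 ± 0.31). *Hsdl2*, a peroxisomal and mitochondrial protein of lipid metabolism, had 25.1, 19.5 and 18.9 CPM against 7.24, 10.5 and 11 (−1.13 ± 0.28). In both, the knockout libraries were close together and well under the wild type in control medium. With Ac-LDL and Ox-LDL the log2 fold changes were −0.04 and 0.405 for *Usp21*, the latter without overlap, and −0.07 and 0.03 for *Hsdl2*. *Ppard*, the nuclear receptor PPARδ that responds to fatty acids, had 18.6, 16.1 and 18.9 CPM against 8.44, 8.05 and 11.6 (−0.93 ± 0.33). *Serac1*, *Tmem159*, *Slc26a11*, *Gm9493* and *Rpl10-ps3* had log2 fold changes from −1.04 to −0.94, and for the last, whose symbol marks a copy of the ribosomal gene *Rpl10*, 96.6% of the 31-base words are shared with other genes.

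In the other direction, *Fam78a* showed the smallest p of the 10, with 14.8, 11.2 and 16 CPM in the wild type and 30.1, 22.3 and 30.9 in the knockout (0.99 ± 0.25). *Nlrc3*, a sensor that dampens innate immune signalling, had 6.50, 15.3 and 7.29 CPM against 18.1, 22.3 and 18.1 (0.96 ± 0.31). *Igf2bp2*, an RNA-binding protein, had 11.1, 14 and 10.9 CPM against 15.1, 28.5 and 29.0 (0.99 ± 0.40), so knockout mouse 1 lay near the wild type. The heat shock chaperone *Hspa1a* had 11.1, 11.2 and 16 CPM against 19.9, 28.5 and 23.9, and it shares 70.1% of its 31-base words with other genes. *Metap1d*, *Gm21992*, *Ccdc61*, *1810009A15Rik*, *Rad54b* and *Ppan* completed the 10, with log2 fold changes from 0.90 (*Ppan*) to 1.11 (*Metap1d*). Leaving out *Slc7a7*, 2 of the other 19 genes, *Hspa1a* and *Gm9493*, were also without overlap in the same direction with Ac-LDL (5.66% of all genes higher, 4.78% lower) and 0 with Ox-LDL (4.5% higher, 4.8% lower). The sign was the same in both LDL media for 5 of the 10 higher and 4 of the 9 lower genes. Most of these genes were thus not apart in the same direction in the LDL libraries of the same mice. A pair of less counted genes is given here too, chosen after their values were seen. The kinase gene *Prkd2* had 3.71, 4.19 and 5.10 CPM in the wild type and 10.8, 14.2 and 12.2 in the knockout (adjusted p = 0.642), and *Zfp965* had 1.86, 4.19 and 2.19 against 18.1, 8.67 and 18.1 (adjusted p = 0.829). *Zfp965* shares 97.9% of its 31-base words with other genes.

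The 10 genes of at least 100 CPM with the smallest p, chosen by that p, differed less in size. *Cd300ld*, an activating receptor of myeloid cells, had 83.6, 117 and 81.6 CPM in the wild type and 157, 142 and 148 in the knockout (0.66 ± 0.18). *Atf3*, a stress-induced transcription factor, had 80.8, 120 and 90.4 CPM against 125, 148 and 132 (0.47 ± 0.14). *Csf2ra*, the receptor chain for GM-CSF, had 97.5, 113 and 118 CPM against 148, 142 and 140 (0.39 ± 0.12). The genotypes were apart in all 3 genes. *Prrc2c* had 335, 449 and 359 CPM against 494, 583 and 532, also without overlap. *Rptor*, the scaffold of mTORC1 that is recruited to lysosomes by amino acids, had 88.2, 124 and 95.5 CPM against 122, 153 and 152 (0.47 ± 0.15), and the integrin *Itga5* had 226, 303 and 230 against 293, 336 and 360, both with slight overlap through wild type mouse 2. Lower in the knockout were *Rhog*, a small GTPase of phagocytosis and ruffling, at 115, 112 and 120 CPM against 93.5, 81.1 and 92.2, the long non-coding *1700020I14Rik* (−0.34 ± 0.13), and the IgG receptor *Fcgr3* at 266, 196 and 375 against 208, 173 and 180. All of these, beside *Lyz2*, were the 10 genes of at least 100 CPM with the smallest p, from 0.00163 (*Cd300ld*) to 0.0133 (*Fcgr3*) unadjusted, and their adjusted p was 1.0. Without a filter on low counts, which raised the genes tested to 22179 and the calls to 28, *Cd300ld* had an adjusted p of 0.0254 in edgeR.

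Few genes kept the genotypes apart in all 3 media, 11 higher (0.0895% of those tested) and 3 lower (0.0244%). Among them 6 and 3 had an unadjusted p under 0.05 in control medium, and they are given as values because the media share their mice. The lower ones were *Slc7a7*, *Lyz2* and *Gpnmb*. *Gpnmb*, a glycoprotein of lipid-loaded macrophages, had 4932, 4863 and 6356 CPM in the wild type and 4278, 4221 and 4293 in the knockout (−0.34 ± 0.15), with −0.38 in each LDL medium. The knockout mice were nearly equal, and the wild type spread came from mouse 3. The higher ones were *Lyz1*, *Cd300ld*, *Atf3*, *Col18a1*, *Hnrnpr* and *Elk4*. *Col18a1*, the collagen from which endostatin is released, had 252, 274 and 263 CPM against 329, 318 and 296, and *Elk4*, a transcription factor acting with SRF, had 48.3, 62.8 and 50.3 against 74.8, 68.7 and 81.2.

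Genes of amino acid handling were then read as lists, in order from transport to sensing, against the 4.0% of all genes with an unadjusted p under 0.05. Of 21 tested transporters of glutamine, neutral and lysosomal amino acids, 1 had an unadjusted p under 0.05. This was *Slc15a3*, which carries histidine and peptides out of lysosomes, at 33.4, 41.2 and 59.0 CPM in the wild type and 60.9, 57.6 and 63.8 in the knockout. *Slc38a2*, the adaptive carrier of neutral amino acids, had 194, 198 and 166 CPM against 197, 216 and 207. In arginine and polyamine metabolism, 1 of 19 genes was lower and 0 higher. *Sat1*, the enzyme that starts polyamine breakdown, had 230, 223 and 270 CPM against 222, 169 and 168 (−0.37 ± 0.17), and *Azin1*, which stabilises ornithine decarboxylase, had 176, 172 and 111 against 189, 195 and 183. Both were without overlap, *Azin1* in the higher direction with an unadjusted p of 0.065. *Arg2*, the mitochondrial arginase, had at most 3.02 CPM. In glutamine and glutamate metabolism, 1 of 20 was higher. This was *Ppat*, the first enzyme of purine synthesis, at 13.9, 13.3 and 10.9 CPM against 18.7, 23.5 and 15.5, and *Gclc*, the catalytic subunit that makes γ-glutamylcysteine, stood at 67.8, 35.6 and 37.9 against 33.8, 40.2 and 25.8.

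Lists that report on amino acid shortage had medians near that of all genes. Of 28 targets of ATF4, the factor induced when amino acids run short, 1 was higher (*Atf3*, above) and 0 lower, with a median log2 fold change of 0.01 beside 0.00 over all genes. *Phgdh*, the first enzyme of serine synthesis, had 13.9, 3.49 and 6.56 CPM in the wild type and 10.8, 14.9 and 12.9 in the knockout. In the list of mTORC1 and TFEB, 1 of 34 was higher (*Rptor*), with a median of −0.00, and *Nprl3*, a brake on mTORC1, had 17.6, 12.6 and 18.9 CPM against 11.5, 13 and 9.67. Of 20 aminoacyl-tRNA synthetases, *Dars* was higher at 96.5, 103 and 92.8 CPM in the knockout against 75.2, 85.2 and 69.2, and *Farsb* lower at 25.9, 37.8 and 35.5 against 47.4, 45.4 and 40.1. The share past an unadjusted p of 0.05 was thus 1 of 28, 1 of 34 and 2 of 20, against 4.0% of all genes.

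Lipid handling matters here because lipid-associated macrophages of plaques express lipid uptake and storage genes. For 18 markers of these cells the median was −0.00, and 4 had an unadjusted p under 0.05 (4.0% of all genes did), with *Lpl*, *Mmp12* and *Plin2* higher and *Gpnmb* lower as given above (−0.34 ± 0.15). *Lpl*, the lipoprotein lipase that frees fatty acids from lipoproteins, had 963, 2796 and 1092 CPM in the wild type and 2080, 3626 and 3337 in the knockout (0.90 ± 0.41). *Mmp12*, the macrophage elastase, had 129, 114 and 72.9 CPM against 328, 102 and 152 (0.89 ± 0.35), and *Plin2*, the coat protein of lipid droplets, had 438, 477 and 464 against 558, 568 and 516 (0.25 ± 0.12). Without a filter on low counts, *Lpl* and *Mmp12* had adjusted p of 0.000108 and 1.57e-05 in edgeR. That fit also called *Hist1h2bq* (2.61e-20) and *Ccnb1ip1* (8.63e-06), each with 1 control library far above the rest. Its adjusted p thus does not show that the mice of a genotype agree. Of *Lpl*, *Mmp12* and *Plin2*, only *Plin2* separated the genotypes, *Mmp12* rested on knockout mouse 1 and *Lpl* was high in wild type mouse 2. *Trem2*, the lipid receptor that marks these cells, had 343, 366 and 425 CPM against 370, 447 and 416. *Pparg*, the nuclear receptor that turns on lipid uptake genes, had 24.1, 41.9 and 32.1 CPM against 42.8, 53.9 and 46.4 (0.52 ± 0.25), opposite in sign to *Ppard*. In the list of PPAR targets and lipid droplet genes, 8 of 17 lay above 0 and 9 below, with a median of −0.02. At an unadjusted p under 0.05 in edgeR, 2 of the 17 were higher and 1 lower, beside 4.0% of all genes. Of 12 scavenger receptors for modified LDL, 0 had an unadjusted p under 0.05, and *Cd36* was without overlap at 383, 406 and 393 CPM against 432, 520 and 535 (0.33 ± 0.20). *Apoe*, which carries cholesterol out of macrophages, had 677, 794 and 950 CPM against 543, 430 and 737 (−0.50 ± 0.25), while 0 of 17 LXR targets and 0 of 24 sterol synthesis genes had an unadjusted p under 0.05. The sterol list had its median at −0.13, with 19 of 24 below 0. It includes *Idi1* at 161, 137 and 153 CPM against 135, 128 and 112.

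Several genes were ordered by mouse rather than by genotype. In control medium *Lpl* was low in wild type mice 1 and 3 and higher in wild type mouse 2 than in knockout mouse 1. With Ac-LDL the same mice gave 1366, 3440 and 1599 CPM in the wild type and 2165, 3903 and 3568 in the knockout, and with Ox-LDL 959, 2875 and 1229 against 1927, 3797 and 3228. The order of the mice within each genotype was the same each time. *Folr2*, a folate receptor of resident macrophages, had 31.6, 53.7 and 22.6 CPM against 44.6, 82.3 and 68.3 in control medium (0.84 ± 0.37). *Plk2*, a stress-induced kinase, had 37.1, 103 and 38.6 against 91.7, 124 and 137, and *Pcp4l1* had 9.28, 39.1 and 9.48 against 25.3, 53.2 and 45.8, both chosen after their values were seen. All 4 were high in wild type mouse 2, the one of that genotype with *Xist*, and lowest within the knockout in mouse 1, the one with *Xist* there. A fit without every library of these 2 mice was added after the data were seen. Its log2 fold changes were 1.75 (*Lpl*), 1.48 (*Folr2*), 1.76 (*Plk2*) and 2.38 (*Pcp4l1*), all with an adjusted p under 0.05 in edgeR, and 22 genes were called in all. The mice left out were those that brought the genotypes together in these 4 genes. Larger differences without them therefore follow from that order and are no separate support, and 2 mice per genotype remain. With *Xist* status as a term over all mice instead, 1 gene was called. The part of sex in these values was not tested, and *Mmp12* did not have this order.

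**Figure D4:**
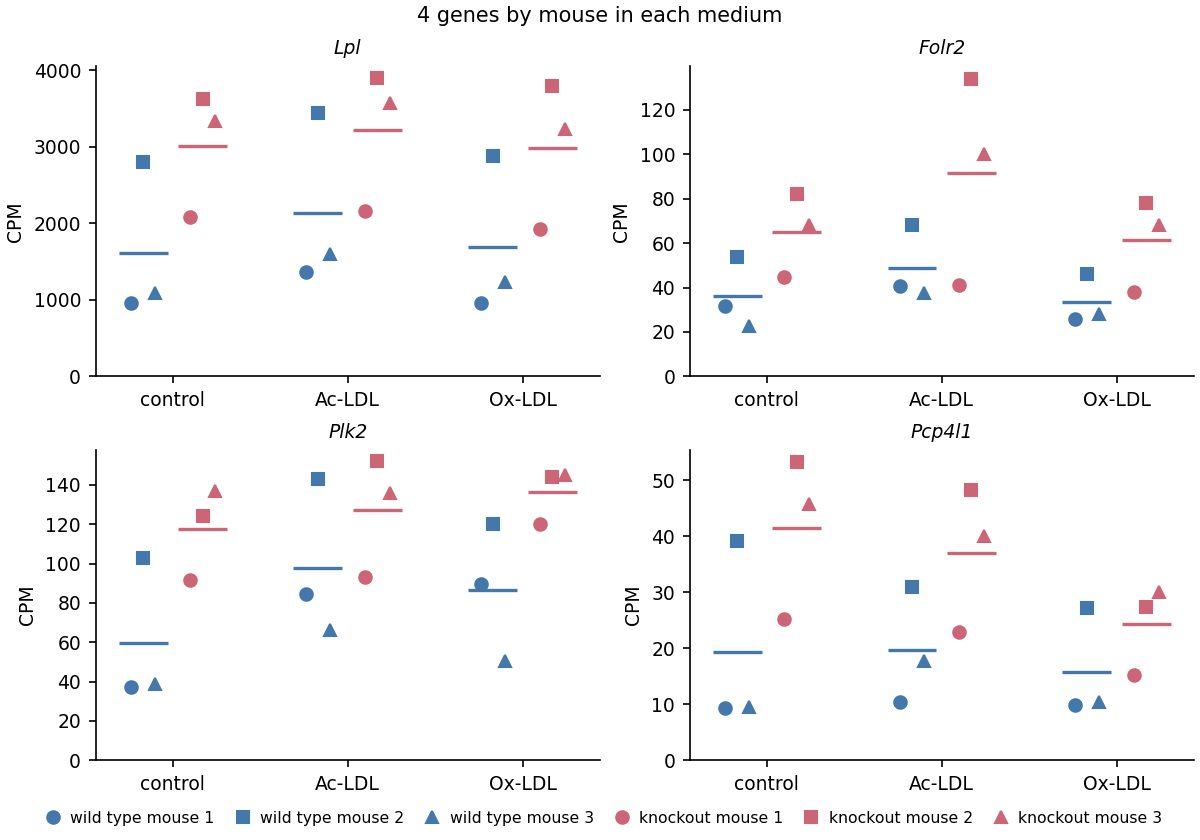
CPM (vertical axes, each from 0) of *Lpl*, *Folr2*, *Plk2* and *Pcp4l1* in the libraries of each mouse, by medium, 1 point per library, with bars at the group means. Wild type mice 1 and 3 lie low and wild type mouse 2 lies above them, in or next to the range of the knockout mice, in each medium. Knockout mouse 1 can lie close to the low wild type mice, as for *Folr2* with Ac-LDL (41.0 CPM against 40.8 in wild type mouse 1).

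Lists of immune and proliferation genes varied more between wild type mice than between genotypes. The 35 interferon-stimulated genes had 0 members at an unadjusted p under 0.05 in edgeR and a median of 0.15, with 28 above 0, and the median was 0.78 without wild type mouse 2. By library, their median deviation from the mean of the 6 libraries was −1.05, 0.60 and −0.17 on the log2 scale in the wild type and −0.15, 0.13 and 0.51 in the knockout. Wild type mouse 1 was lowest and wild type mouse 2 highest, and they were so with both LDLs as well. For 28 S phase genes the values were 0.56, −0.08 and −0.84 in the wild type and −0.02, 0.23 and 0.20 in the knockout, and for 32 genes of mitosis 0.50, −0.01 and −0.80 against 0.06, 0.13 and 0.08. The wild type SD was 0.652 for the mitosis list and the knockout SD 0.0356, with wild type mouse 1 high and wild type mouse 3 low. *Cenpe*, a kinesin of chromosome alignment, was the one mitosis gene with an unadjusted p under 0.05, at 81.7, 67.7 and 43.0 CPM against 73.6, 92.8 and 83.8, and 0 S phase genes had one. Histone genes, 62 in all, followed the wild type order too, with 0.75, 0.08 and −0.56 against −0.25, 0.04 and 0.05. MHC class II genes, 11 in all, had a median log2 fold change of 0.31, the largest of the immune lists, which was −0.02 without wild type mouse 1, and 0 members at an unadjusted p under 0.05 in edgeR. *H2-DMb1*, which helps to load peptides, was without overlap in the lower direction, at 20.4, 20.9 and 20.4 CPM against 15.7, 14.9 and 15.5.

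**Figure D5:**
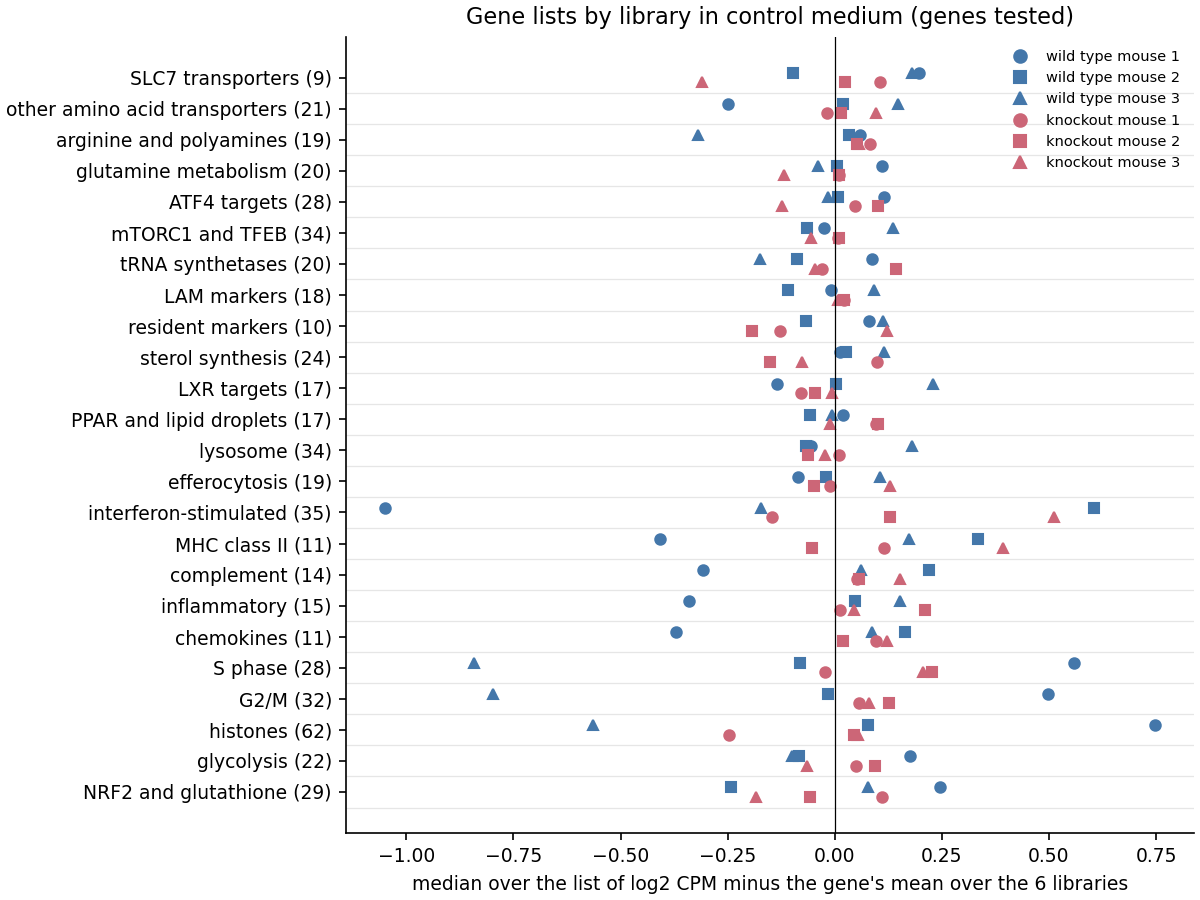
Median over each gene list (1 line per list, tested genes in brackets) of log2 CPM minus the gene's mean over the 6 control libraries (horizontal axis), 1 point per library. For the interferon-stimulated, S phase, G2/M and histone lists the wild type mice lie at both ends (−1.05 and 0.60 for interferon-stimulated genes), while the amino acid and lipid lists lie close to 0 in most libraries.

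Other macrophage functions gave small or scattered differences, read here against the 4.0% of all genes with an unadjusted p under 0.05 (2.1% higher, 1.9% lower). Of 34 lysosomal genes 1 was lower, *Smpd1*, the acid sphingomyelinase, at 32.5, 30.7 and 24.8 CPM in the wild type and 19.3, 21.1 and 18.7 in the knockout (−0.57 ± 0.26), and 26 of 34 lay below 0 with a median of −0.05. In efferocytosis, the uptake of dying cells, 2 of 19 were lower. They were the bridging molecules *Mfge8*, at 50.1, 28.6 and 28.4 CPM against 16.9, 24.1 and 26.4, and *Gas6*, at 78.0, 38.4 and 48.8 against 32.0, 34.7 and 49.6, and wild type mouse 1 held the highest value of both. Without regard to p, 4 genes of this list were without overlap in the higher direction and 1 in the lower, beside 4.88% and 4.39% of all genes. Among the higher ones, *Anxa1*, which helps to clear dying cells, had 769, 865 and 725 CPM against 944, 978 and 918 (0.27 ± 0.13, unadjusted p of 0.0521). Of 10 resident macrophage genes, *Folr2* was higher and *Gas6* and *F13a1* lower, the last at 13, 11.2 and 14.6 CPM against 8.44, 5.57 and 7.09. Of 22 macrophage identity genes, *Lyz1* was higher, and *Lyz2*, *Cd33* and *Tlr2* lower, with unadjusted p from 0.000183 (*Lyz2*) to 0.0168 (*Tlr2*). Complement had 1 of 14 higher, *C1ra*, at up to 9.67 CPM. In edgeR, 0 of 15 inflammatory genes, 0 of 11 chemokines and 0 of 22 glycolysis genes had an unadjusted p under 0.05. The same held for the 13 genes of the mitochondrial genome and the 77 ribosomal protein genes, whose medians were 0.07 and −0.04.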

How the data were processed

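The authors sequenced total RNA from single ends with a stranded kit and ran Trim Galore, STAR and Salmon in an nf-core workflow, on mm10 with Ensembl 93 genes. The deposited table holds their expected counts, estimated per gene and not normalized, for 31053 genes and 18 libraries. How strand was handled in counting, and which tool versions ran, is not given in the sources used here. Reads shared by near-identical genes are split by Salmon's model, which can move counts from one copy to another.

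Counts were rounded to whole numbers. The main test was the quasi-likelihood test of edgeR 4.0.16 in R 4.3.3, with TMM scaling and all 18 libraries in 6 groups. Low counts were filtered with filterByExpr (minimum count 2, minimum total 10). The fit kept the default prior count of edgeR, and a prior count of 2 entered only log2 CPM values, as in the list medians. P-values were adjusted by Benjamini-Hochberg over 12290 genes with a threshold of 0.05. Each SE and interval was derived from the fitted fold change and its test statistic, with a spread shared by all 18 libraries. They are not the spread of the 3 mice of a genotype, and the fit took libraries of the same mouse as independent. CPM values use TMM library sizes without a prior. Totals of 1067282 to 1712563 counts per control library set the precision, and the bound for a count of 0 was 3 counts per library, covering counting error only. DESeq2 1.42.0 was run as an alternative. Scripts were tested on simulated data. Gene positions and coding sequences came from GENCODE M21 on GRCm38, which held 12281 of the tested identifiers. Replicate numbers were not used as a block, since same-numbered control libraries correlated at 0.225, 0.0834 and 0.0458 in their deviations and come from different mice.

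Genes were named by rule: those called, *Slc7a7*, the *Lyz* and *Gstp* genes, the 10 largest differences in each direction among non-overlapping genes of at least 10 CPM, the 10 smallest p at 100 CPM or more, all SLC7 members and up to 3 per list, some of which are given only within their list's count. The comparison and all lists were chosen with earlier results of these data known, so lists carry no test. Other alternatives were scaling, filters, thinning, summed copies, the control libraries alone, leaving out single libraries and, chosen after the data were seen, a term for each of the mice in the test of whether the genotype difference depends on the medium. The result for 1 gene of that test is not reported here.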

Additional observations from a re-analysis of the deposited data

Results flagged for a closer look

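The difference between genotypes differed between Ac-LDL and control medium for 5 genes, by the edgeR test with a term for each mouse that was added after the data were seen, and 4 of them are described here. None of the 4 passed without that term (adjusted p 0.521 to 1.0). *Ngp*, a granule protein gene of neutrophils, had 29.7, 23.0 and 22.6 CPM in the wild type and 24.1, 11.8 and 48.3 in the knockout in control medium, and 61.7, 53.2 and 17 against 11.8, 7.77 and 9.86 with Ac-LDL (−2.23, adjusted p = 0.0436). It is 1 of 11 tested neutrophil markers, and the list as a whole was lower in the knockout under LDL. The list median of the log2 fold change was −1.4 (Ac-LDL) and −1.18 (Ox-LDL), beside −0.315 for vehicle. Whether the *Ngp* difference reflects the share of neutrophils left in the cultures was not tested.

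The remaining 3 genes had a genotype without counts, so their fitted differences depend on the default prior count of the fit. They were *Gstp1* (6.09, adjusted p = 0.0436) and *Gm32687* (8.04, adjusted p = 0.0291), with 0 counts in the knockout in control medium alone, and *Hist1h2ah* (−8.26, adjusted p = 0.0291). *Hist1h2ah*, a histone gene, had 0, 27 and 10 counts in the wild type and 4, 38 and 0 in the knockout in control medium, and 8, 46 and 50 against 0, 0 and 0 with Ac-LDL.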

How the results depend on the processing

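The count of 1 called gene became 28 without a filter on low counts, 3 with DESeq2, 22 without the 2 mice high in *Xist* (chosen after seeing the data), 0 with the control libraries alone (edgeR, 414 at an unadjusted p under 0.05), 0 after thinning (469), 0 with near-identical copies summed (488) and 0 to 1 with single libraries left out. With *Gm32687* and *Zfp433* also summed, again after seeing the data, edgeR made 0 calls (480). The 491 genes at an unadjusted p under 0.05 became 256 with DESeq2 (122 higher, 134 lower), 930 without the mice high in *Xist* (466 higher, 464 lower) and 365 to 754 with single libraries left out (176 to 408 higher, 189 to 346 lower). The highest values came without wild type mouse 2, where *Gm45234* was the called gene. Without a filter 399 were higher. The unfiltered fit called *Lpl*, *Mmp12*, *Cd33*, *Cd300ld*, *Lyz2* and *Gstp2* among others, and the cause was not tested. It also called *Hist1h2bq*, *Nnt* and *Ccnb1ip1*, each set apart by 1 control library, so a call in that fit does not show that replicates agree.

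The replicate numbers did not pair the samples by the check on deviations, and the fit with a replicate block gave 0 calls (edgeR, 501 genes at an unadjusted p under 0.05). In the test of whether the genotype difference depends on the medium, a term for each mouse, added after the data were seen, moved the calls from 0 to 5 with Ac-LDL and left 0 with Ox-LDL.

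Signs changed for *Gstp1* (0.00019, but −0.01 with *Gm32687* and *Zfp433* also summed) and *Gm32687* (0.23) when summed with their copies, and without the mice high in *Xist* for *Slc7a8* (−0.25), *Slc7a11* (−0.25), *Ung* (0.0258) and *Gm20521* (0.0). With single libraries left out, log2 fold changes ran from −0.19 to 0.16 for *Slc7a8*, −1.38 to 0.10 for *Slc7a4*, −0.0448 to 0.71 for *Slc7a5*, −6.13 to 0.0 for *Gm20521*, −0.15 to 0.13 for *Oxa1l* and −0.36 to 1.36 for *Ccnb1ip1*. Of 2152 values for 121 genes over 18 settings, 2098 kept their sign and their side of the threshold. The *Slc7a7* difference stayed negative throughout, from −1.80 to −0.84. At this depth, a typical 95% interval reached a factor of 1.51 from 10 to 30 CPM, and more below that. It is not adjusted for the number of genes, and larger differences, as in *Slc7a7* and *Hsdl2*, also missed the adjusted threshold.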

Other observations

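*Ccnb1ip1*, a ubiquitin ligase gene on chromosome 14, stood at 7505 CPM in knockout mouse 2 in control medium, while the other 5 libraries lay between 1265 and 1876 CPM. The same mouse was highest in both LDL media, at 4820 CPM (Ac-LDL) and 3669 CPM (Ox-LDL). Without its control library the log2 fold change was −0.36.

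*Gm16867* had 22 and 34 counts in wild type mice 1 and 3 and at most 1 in the other control libraries. In Ac-LDL medium these 2 mice had 17 and 15 counts, in Ox-LDL medium 12 and 22, against at most 1 in any other mouse. *Gm16867* shares 98.9% of its 31-base words with other genes. The file lists 2 identifiers under *Nnt*, which makes NADPH in mitochondria. The second had 42 counts in wild type mouse 1 and 0 in the other 5 control libraries, where the first had 43 to 83 counts, against 13 in wild type mouse 1. With Ac-LDL the second had 44 counts in wild type mouse 1 alone. With Ox-LDL it had 0 there and 41 in wild type mouse 3, so this split did not stay with the mouse. *Hist1h2bq*, a histone gene, had 105 CPM in wild type mouse 1 and at most 4.33 in the others. *Gm45234* had 0 CPM in wild type mice 1 and 3, 23.0 in wild type mouse 2 and 18.1, 18.6 and 43.2 in the knockout. These genes were named after their values were seen.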
